A study of Mus musculus with 2 samples.

Results

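The replication-dependent histone genes encode the histones that package newly made DNA. Members were all genes whose symbol begins with Hist1h, Hist2h, Hist3h or Hist4 and that had 20 or more UMIs (unique molecular identifiers, each marking 1 captured RNA molecule) in the kept cell barcodes. This gave 52 genes of 67 with such a symbol, among 31053 genes of the RNA table. They comprised 5 linker histone (H1) genes, 13 H2A, 15 H2B, 8 H3 and 11 H4 genes. Of the other 15 genes, 4 had 0 UMIs. The members just inside the minimum were Hist2h2aa1 with 21 UMIs, Hist1h2bk with 22 and Hist1h4f with 24, and those just outside it were Hist1h4n with 15, Hist1h4m with 11 and Hist1h2ah with 11. The members together had 41386 UMIs, or 0.127% of 32705014.

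The cells were donor T cells from the colons of Balb/c mice that had been lethally irradiated and given C57BL/6 bone marrow (5000000 cells) together with splenocytes that contained 800000 alpha beta T cells, a model of graft-versus-host disease. On day 21 the colons of 5 mice were pooled, and cells bearing donor H2-Kb together with TCR beta were taken by sorting. From that pool came 1 RNA library made with the 5′ droplet kit of 10x Genomics, and its cDNA also served 1 T cell receptor library; the pool is a single sample without a replicate. Animals cannot be told apart in it, and it has no untreated or non-transplanted group. Since cells of a pool cannot stand in for replicates, differences are given without a test, with 95% intervals that cover counting error alone.

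Cells were grouped by 2 gene lists that hold no histone gene, one of DNA replication and one of mitosis. After thinning every cell to 2000 UMIs, a cell with 4 or more UMIs of the replication list alone was put in the replication state (544 cells), with 4 or more of each list in the combined state (549 cells), with 4 or more of the mitosis list alone in the mitosis state (216 cells), and otherwise in the neither state (4024 cells). A state is thus a range of list counts and not a measured phase: 448 cells lay at 3 and 212 at 4 UMIs of the replication list, and 101 at 3 and 63 at 4 UMIs of the mitosis list. Median depth was 7809, 10295, 8693 and 4268 UMIs per cell over these states, and the median mitochondrial share lay between 2.15% and 2.24% in all of them. Although the titles name CD4 cells, both lineages were present: 1861 cells had a Cd4 UMI and none of Cd8a or Cd8b1 (CD4 cells), 2391 the reverse (CD8 cells), and the other cells had UMIs of both (301) or of none (780). The CD4 and CD8 cells numbered 180 and 259 in the replication state, 160 and 297 in the combined state, 63 and 120 in the mitosis state, and 1458 and 1715 in the neither state. Levels are summed UMIs per 10000 UMIs of the same cells; a UMI counts a molecule once, and no level was divided by transcript length.

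In each nucleosome, DNA is wound around a core of the histones H2A, H2B, H3 and H4, and a linker histone H1 binds where the DNA enters and leaves it. Cells make most of these proteins while they copy their DNA, from clustered genes whose mRNAs end, without a poly(A) tail, in a short stem-loop that the protein SLBP binds. The droplet chemistry primes on poly(A), so these libraries sample histone mRNA through molecules that such priming captures. Donor T cells that meet recipient antigen are known to divide.

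The histone stem-loop was sought by its 16-base consensus, with 6 letters of the stem and loop left free, on the transcript strand, in the annotated protein-coding transcripts (GENCODE M21, GRCm38). It was found in 38 of 52 members and in 90 of 21834 other protein-coding genes (0.412%), and in all 38 members the match lay after the stop codon, in the 3′ UTR. Of the 14 members with no match, 10 had no annotated base after the stop codon and Hist1h2af had 1, so no match could lie there; the others were Hist1h1a, Hist1h2bc and Hist2h2be. The same 16 letters, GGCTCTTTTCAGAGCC, stood in 21 members of the H1, H2A, H2B and H3 families, while none of the 10 H4 matches had them and 5 of these read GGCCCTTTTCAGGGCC. Shown are the matches, in capitals with 5 bases on either side, of the H1 genes that have one and of core genes with many UMIs or an extreme ratio below. The capitals lie at chr13:23739512-23739527 for Hist1h1c, chr13:23555787-23555802 for Hist1h1d and chr13:23751572-23751587 for Hist1h2ab, chr13:22043638-22043653 for Hist1h2bj and chr13:23581950-23581965 for Hist1h4d, all on the plus strand, and at chr13:23621782-23621797 for Hist1h1e, chr13:23570668-23570683 for Hist1h2ae, chr13:23561903-23561918 for Hist1h3e, chr13:22040966-22040981 for Hist1h4i and chr6:136803998-136804013 for Hist4h4, on the minus strand.
Hist1h1c: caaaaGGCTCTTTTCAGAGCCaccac
Hist1h1d: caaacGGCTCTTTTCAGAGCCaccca
Hist1h1e: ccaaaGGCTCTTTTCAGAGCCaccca
Hist1h2ab: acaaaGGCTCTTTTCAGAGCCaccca
Hist1h2ae: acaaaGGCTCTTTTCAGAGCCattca
Hist1h2bj: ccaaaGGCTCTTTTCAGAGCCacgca
Hist1h3e: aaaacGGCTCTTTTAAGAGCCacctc
Hist1h4d: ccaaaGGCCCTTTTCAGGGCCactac
Hist1h4i: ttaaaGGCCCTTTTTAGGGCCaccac
Hist4h4: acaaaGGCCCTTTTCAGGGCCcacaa

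Promoters (250 bases before the RefSeq start, GRCm38.p6) could be matched to 47 of 52 members and were searched on both strands for 4 motifs. CCAAT stood in 40 of 47 member promoters and in 36.3% of 17492 promoters of that length, and TATAAA in 24 of 47 against 12.4%. The octamer ATTTGCAT stood in 10 of 47 against 1.61%: in 5 of 13 H2A and 5 of 13 H2B promoters and in none of the H1, H3 or H4 promoters. AAACACA, known as the H1 box, stood in 4 of 5 H1 promoters (not that of Hist1h1a) and in 2 of 42 core histone promoters, against 5.44%. In the H1 genes the match nearest the start began at -117 (Hist1h1b), -112 (Hist1h1c), -122 (Hist1h1d) and -115 (Hist1h1e). The 5 H1 genes are shown because they differ widely among themselves in the results, and Hist1h2ab and Hist1h2bb because they hold the octamer. Each run is the last 130 bases before the start, at chr13:23763538-23763667 (plus strand) for Hist1h1a, chr13:21780626-21780755 (minus strand) for Hist1h1b, chr13:23738677-23738806 (plus strand) for Hist1h1c, chr13:23554902-23555031 (plus strand) for Hist1h1d, chr13:23622559-23622688 (minus strand) for Hist1h1e, chr13:23750958-23751087 (plus strand) for Hist1h2ab and chr13:23746604-23746733 (plus strand) for Hist1h2bb. Capitals mark any of the 4 motifs on either strand; a match is a description of letters, not a measured site.
Hist1h1a: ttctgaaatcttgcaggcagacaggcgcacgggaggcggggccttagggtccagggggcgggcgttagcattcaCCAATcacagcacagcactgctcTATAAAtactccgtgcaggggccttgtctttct
Hist1h1b: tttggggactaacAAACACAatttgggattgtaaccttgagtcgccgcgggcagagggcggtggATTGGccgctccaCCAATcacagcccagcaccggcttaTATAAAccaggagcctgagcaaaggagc
Hist1h1c: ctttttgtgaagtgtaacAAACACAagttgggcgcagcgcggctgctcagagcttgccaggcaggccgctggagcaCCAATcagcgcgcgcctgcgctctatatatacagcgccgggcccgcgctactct
Hist1h1d: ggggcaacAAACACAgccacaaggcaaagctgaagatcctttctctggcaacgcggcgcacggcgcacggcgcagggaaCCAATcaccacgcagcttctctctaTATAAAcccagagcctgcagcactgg
Hist1h1e: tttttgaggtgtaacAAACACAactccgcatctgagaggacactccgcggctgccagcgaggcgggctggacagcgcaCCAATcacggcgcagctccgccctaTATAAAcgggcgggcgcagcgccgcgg
Hist1h2ab: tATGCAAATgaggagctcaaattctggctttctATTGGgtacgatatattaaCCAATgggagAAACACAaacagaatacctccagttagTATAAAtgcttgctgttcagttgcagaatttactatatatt
Hist1h2bb: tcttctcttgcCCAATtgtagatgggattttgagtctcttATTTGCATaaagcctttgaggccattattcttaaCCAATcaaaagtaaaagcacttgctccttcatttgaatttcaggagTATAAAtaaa

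Histone RNA was highest in cells that carried replication and mitosis transcripts together. The summed level of the 52 members was 9.48 in the replication state, 39.9 in the combined state, 22.1 in the mitosis state and 3.55 in the neither state. The combined state thus stood 11.2 (10.95 to 11.6) times as high as the neither state, the mitosis state 6.22 (5.99 to 6.46) times and the replication state 2.67 (2.57 to 2.77) times. With the limit at 6 UMIs in place of 4, the replication over neither value was 2.10 on the log2 scale, against 1.42. With the limit at 3 UMIs it was 0.90. The replication state was also below the mitosis state, at a ratio of 0.430 (0.412 to 0.448). Although the combined state held 10.3% of the cells, it held 61.3% of all member UMIs, against 10.8% in the replication state, 11.2% in the mitosis state and 16.7% in the neither state. Its cells were also the deepest by median, so these shares mix in depth, which the levels above do not. Mki67, which dividing cells express, had 1.74, 7.13, 6.24 and 0.248 UMIs per 10000 over the replication, combined, mitosis and neither states. The level of the replication list itself was near alike in the replication and combined states (43.5 and 48.6 per 10000).

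All 5 families had the order combined, mitosis, replication, neither, but by different amounts. Summed H2A genes stood at 2.20 in the replication state, 12.96 in the combined state, 6.78 in the mitosis state and 0.392 in the neither state. Combined over neither, this was a ratio of 33.1 (30.7 to 35.7), the highest of the families. H3 stood at 0.594 in the replication state, 2.54 in the combined state, 1.52 in the mitosis state and 0.236 in the neither state, with a ratio of 10.7 (9.68 to 11.9), and H2B at 0.899 in the replication state, 3.98 in the combined state, 2.57 in the mitosis state and 0.402 in the neither state, with a ratio of 9.89 (9.12 to 10.7). The H3 and H2B intervals overlap, and those of the other families do not overlap them or each other. H1 stood at 4.58 in the replication state, 16.1 in the combined state, 8.55 in the mitosis state and 1.87 in the neither state, with a ratio of 8.58 (8.26 to 8.92). H4 had the lowest ratio, 6.74 (6.30 to 7.21), at levels of 1.20 in the replication state, 4.33 in the combined state, 2.66 in the mitosis state and 0.643 in the neither state.

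**Figure D1:**
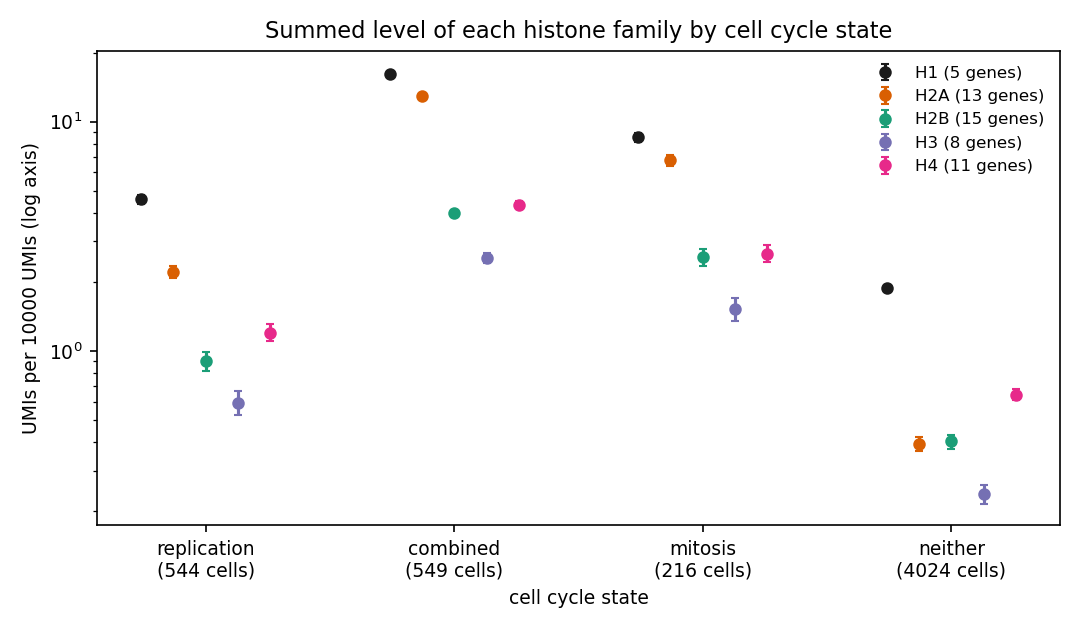
Summed level of each histone family (UMIs per 10000 UMIs, log axis) in the 4 cell cycle states, with exact 95% Poisson intervals of counting error. Every family is highest in the combined state and lowest in the neither state, and H2A spans the widest range, from 12.96 in the combined state to 0.392 in the neither state.

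Single members followed the families in the main. A member was counted as past 2-fold where the ratio of its levels was 2 or more, or 0.5 or less, with 20 or more UMIs over both states compared. Combined over neither, 49 members had that many and 47 were at least 2-fold higher, where 9.13% of all 11355 genes tested were; none was 2-fold lower, where 11.1% were. Mitosis over neither, 37 of 39 were higher, where 6.16% of all genes were, and none was lower, where 8.16% were. Replication over neither, 23 of 39 were higher, where 6.87% of all genes were, and 1, Hist3h2a (named after its value was seen), was 2-fold lower, where 5.86% of all genes were. With a minimum of 50 UMIs over both states fewer members qualified, and 14 of those were higher. That 14 is therefore not out of 39, and no share over all genes stands beside it. Replication over mitosis, 20 of 36 were 2-fold lower, where 3.74% of all genes were, and none was 2-fold higher, where 5.05% were. Combined over replication, 47 of 50 were higher (3.56% of all genes) and none lower (2.16%), and combined over mitosis 17 of 48 were higher (4.98%) and none lower (2.33%). A rarely counted gene reaches 20 UMIs mainly through the state where it is high, so these counts describe the members that reached it and are no support for a rule over all 52. Counted over all 52 with no minimum, the highest level lay in the combined state for 48 and in the mitosis state for 4, which were Hist1h1c, Hist1h2bc, Hist2h2be and Hist3h2a. The lowest level lay in the neither state for 46 and in the replication state for 6. Of the 35 members with 100 or more UMIs, 33 were highest in the combined and 2 in the mitosis state. Of the same 35, 32 were lowest in the neither and 3 in the replication state. No share over all genes stands beside these counts of highest and lowest states, so they are a description.

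The 5 linker histone genes, which encode somatic H1 subtypes, differed widely from each other. Hist1h1b stood at 1.70 in the replication state, 7.11 in the combined state, 2.60 in the mitosis state and 0.131 in the neither state, and its combined over neither ratio was 54.2 (95% interval 47.8 to 61.7). Hist1h1a, the least counted, stood at 0.186 in the replication state, 0.732 in the combined state, 0.153 in the mitosis state and 0.0164 in the neither state, a ratio of 44.7 (95% interval 31.2 to 66.1). Both ratios were far above those of the other 3 genes. Hist1h1d stood at 0.406 in the replication state, 1.44 in the combined state, 0.954 in the mitosis state and 0.128 in the neither state, a ratio of 11.3 (95% interval 9.79 to 13.02). Hist1h1e, the member with most UMIs (6497), stood at 1.60 in the replication state, 5.42 in the combined state, 3.10 in the mitosis state and 0.843 in the neither state, a ratio of 6.43 (95% interval 6.06 to 6.82). Its transcript shares annotated exon bases with Hist1h2be on the same strand, so reads there could be assigned to either gene or dropped. Hist1h1c differed from the rest. It stood at 0.692 in the replication state, 1.38 in the combined state, 1.74 in the mitosis state and 0.755 in the neither state, so that combined over neither was only 1.83 (95% interval 1.68 to 1.99), and replication over neither was 0.916 (95% interval 0.810 to 1.03). The makeup of H1 RNA differed by state. Hist1h1b made up 44.2% of H1 UMIs in the combined state, against 6.99% in the neither state, and Hist1h1c made up 8.60% in the combined state, against 40.3% in the neither state. Hist1h1e made up 33.7% in the combined state, against 45% in the neither state.

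**Figure D2:**
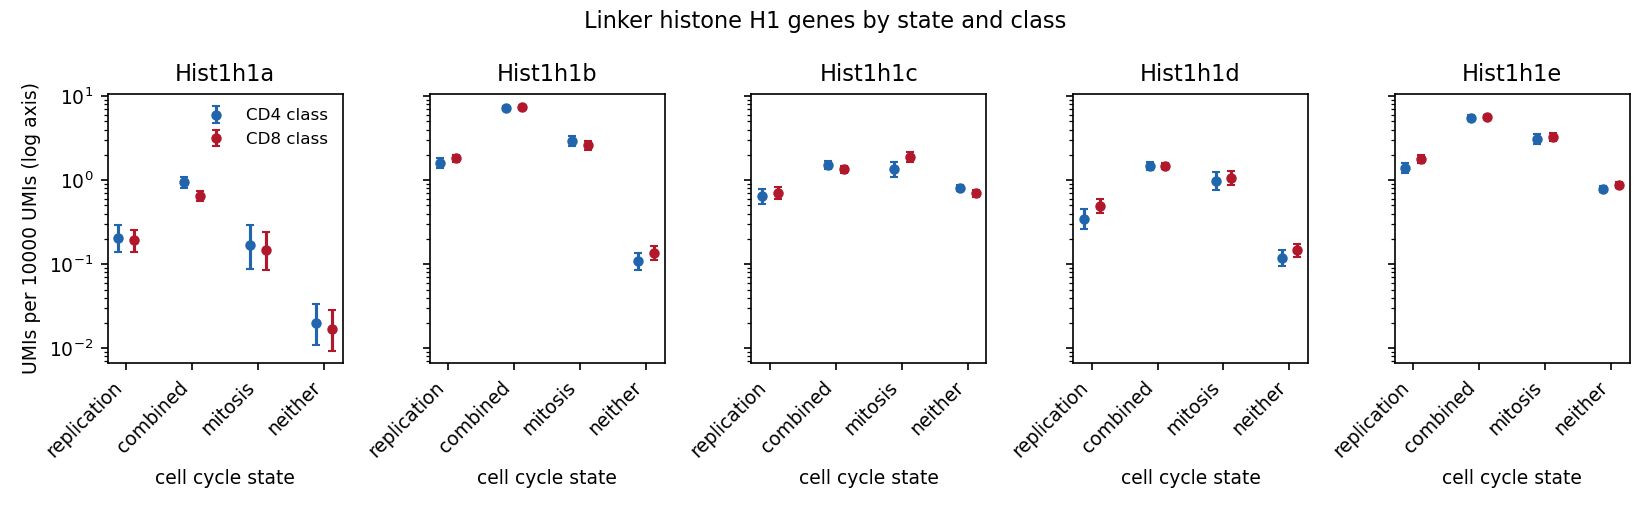
Level of the 5 H1 genes (UMIs per 10000 UMIs, log axis) by cell cycle state in CD4 cells (blue) and CD8 cells (red), with exact 95% Poisson intervals. Hist1h1a and Hist1h1b drop furthest in the neither state, Hist1h1c varies least, and the CD4 and CD8 points lie close together beside the differences between states.

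Hist1h2ae was the core member with most UMIs (5142). The H2A protein forms a pair with H2B in the nucleosome core. Hist1h2ae stood at 0.918 in the replication state, 5.93 in the combined state, 3.35 in the mitosis state and 0.121 in the neither state, a combined over neither ratio of 48.9 (95% interval 42.8 to 55.96). Hist1h2ab stood at 0.290 in the replication state, 2.15 in the combined state, 0.992 in the mitosis state and 0.0174 in the neither state, a ratio of 124 (95% interval 88.1 to 179). Hist1h2ap stood at 0.332 in the replication state, 1.97 in the combined state, 0.892 in the mitosis state and 0.0292 in the neither state, a ratio of 67.5 (95% interval 51.7 to 89.6). Few UMIs of either gene came from cells under 4 UMIs of each list: 1.95% of Hist1h2ab UMIs and 3.45% of Hist1h2ap UMIs fell in the neither state, which held 75.5% of the cells. As its cells were the shallowest by median, that state held a smaller share of all UMIs than of the cells. Hist1h2ak stood at 0.218 in the replication state, 0.947 in the combined state, 0.534 in the mitosis state and 0.0318 in the neither state. Hist1h2ac stood at 0.0952 in the replication state, 0.499 in the combined state, 0.281 in the mitosis state and 0.0364 in the neither state. Hist2h2ac, of the chromosome 3 cluster, stood at 0.237 in the replication state, 0.906 in the combined state, 0.396 in the mitosis state and 0.121 in the neither state, so that its ratio of 7.50 (95% interval 6.43 to 8.76) was below those of the chromosome 13 genes with 100 or more UMIs in the family. Hist1h2ai stood at 0.0275 in the replication state, 0.129 in the combined state, 0.110 in the mitosis state and 0.00717 in the neither state. Hist1h2af stood at 0.0338 in the replication state, 0.206 in the combined state, 0.100 in the mitosis state and 0.000512 in the neither state; its neither level rests on 1 UMI, and its ratio of 403 (95% interval 71 to 16019) has a wide interval for that reason. The other 5 H2A members had 21 to 85 UMIs.

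H2B genes were led by Hist1h2bj, at 0.269 in the replication state, 1.14 in the combined state, 0.634 in the mitosis state and 0.0466 in the neither state, a ratio of 24.5 (95% interval 19.7 to 30.9). Hist3h2ba, on chromosome 11, stood at 0.144 in the replication state, 0.637 in the combined state, 0.634 in the mitosis state and 0.170 in the neither state, a ratio of 3.76 (95% interval 3.24 to 4.36), and had nearly the same level in the combined and mitosis states. Hist2h2bb stood at 0.0909 in the replication state, 0.488 in the combined state, 0.172 in the mitosis state and 0.0364 in the neither state. In this gene 1 cell gave 5.00% of all UMIs. Hist1h2bc stood at 0.0486 in the replication state, 0.283 in the combined state, 0.305 in the mitosis state and 0.0374 in the neither state, and its combined and mitosis levels lay within counting error of each other. Hist1h2bb stood at 0.0635 in the replication state, 0.348 in the combined state, 0.253 in the mitosis state and 0.00819 in the neither state. Hist1h2bm stood at 0.0698 in the replication state, 0.313 in the combined state, 0.167 in the mitosis state and 0.0133 in the neither state. Hist1h2bb had the highest combined over neither ratio of the H2B genes with 100 or more UMIs, 42.4 (95% interval 25.6 to 75.6). Hist1h2be stood at 0.0613 in the replication state, 0.164 in the combined state, 0.0763 in the mitosis state and 0.0369 in the neither state. Hist1h2bh stood at 0.0254 in the replication state, 0.184 in the combined state, 0.124 in the mitosis state and 0.00922 in the neither state. Hist1h2bn stood at 0.0423 in the replication state, 0.179 in the combined state, 0.0334 in the mitosis state and 0.0102 in the neither state, higher in the replication than in the mitosis state by value, from 20 and 7 UMIs. The other 6 H2B members had 22 to 93 UMIs.

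Among H3 genes, whose proteins form the centre of the core with H4, Hist1h3e stood at 0.286 in the replication state, 1.34 in the combined state, 0.863 in the mitosis state and 0.147 in the neither state, a ratio of 9.11 (95% interval 7.96 to 10.5). Hist1h3f stood at 0.0423 in the replication state, 0.373 in the combined state, 0.205 in the mitosis state and 0.0358 in the neither state. Hist1h3c stood at 0.0317 in the replication state, 0.233 in the combined state, 0.157 in the mitosis state and 0.00768 in the neither state. All 3 had a higher level in the mitosis than in the replication state. Hist1h3a stood at 0.0952 in the replication state, 0.148 in the combined state, 0.0525 in the mitosis state and 0.0256 in the neither state, and was, of the H3 genes with 100 or more UMIs, the 1 with a higher level in the replication than in the mitosis state. Hist1h3i stood at 0.0444 in the replication state, 0.172 in the combined state, 0.129 in the mitosis state and 0.0143 in the neither state. Hist1h3g stood at 0.0888 in the replication state, 0.195 in the combined state, 0.0906 in the mitosis state and 0.00205 in the neither state, with 10.1% of its UMIs from 1 cell. Its ratio of 95.3 (95% interval 36.3 to 355) rests on 4 UMIs in the neither state. Hist1h3d and Hist1h3b had 35 and 27 UMIs.

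H4 genes, which encode 1 protein from many loci, had the lowest combined over neither ratio of the families when summed. Hist1h4d stood at 0.541 in the replication state, 2.64 in the combined state, 1.44 in the mitosis state and 0.283 in the neither state, a ratio of 9.33 (95% interval 8.47 to 10.3). Hist1h4i stood at 0.343 in the replication state, 0.840 in the combined state, 0.653 in the mitosis state and 0.140 in the neither state, a ratio of 5.99 (95% interval 5.17 to 6.95). Hist4h4, alone on chromosome 6, stood at 0.0719 in the replication state, 0.137 in the combined state, 0.129 in the mitosis state and 0.0727 in the neither state, a ratio of 1.88 (95% interval 1.42 to 2.48). With Hist1h1c it was 1 of the 2 tested members under 2-fold in that comparison. Hist2h4 stood at 0.0698 in the replication state, 0.195 in the combined state, 0.138 in the mitosis state and 0.0502 in the neither state. Hist1h4c stood at 0.0571 in the replication state, 0.134 in the combined state, 0.110 in the mitosis state and 0.0481 in the neither state. Hist1h4h stood at 0.0486 in the replication state, 0.153 in the combined state, 0.0954 in the mitosis state and 0.0230 in the neither state. All 3 had a lower combined over neither ratio than Hist1h4d: 3.89, 2.78 and 6.62, in that order. Hist1h4k stood at 0.0296 in the replication state, 0.115 in the combined state, 0.0382 in the mitosis state and 0.00871 in the neither state. The other 4 H4 members had 24 to 41 UMIs.

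**Figure D3:**
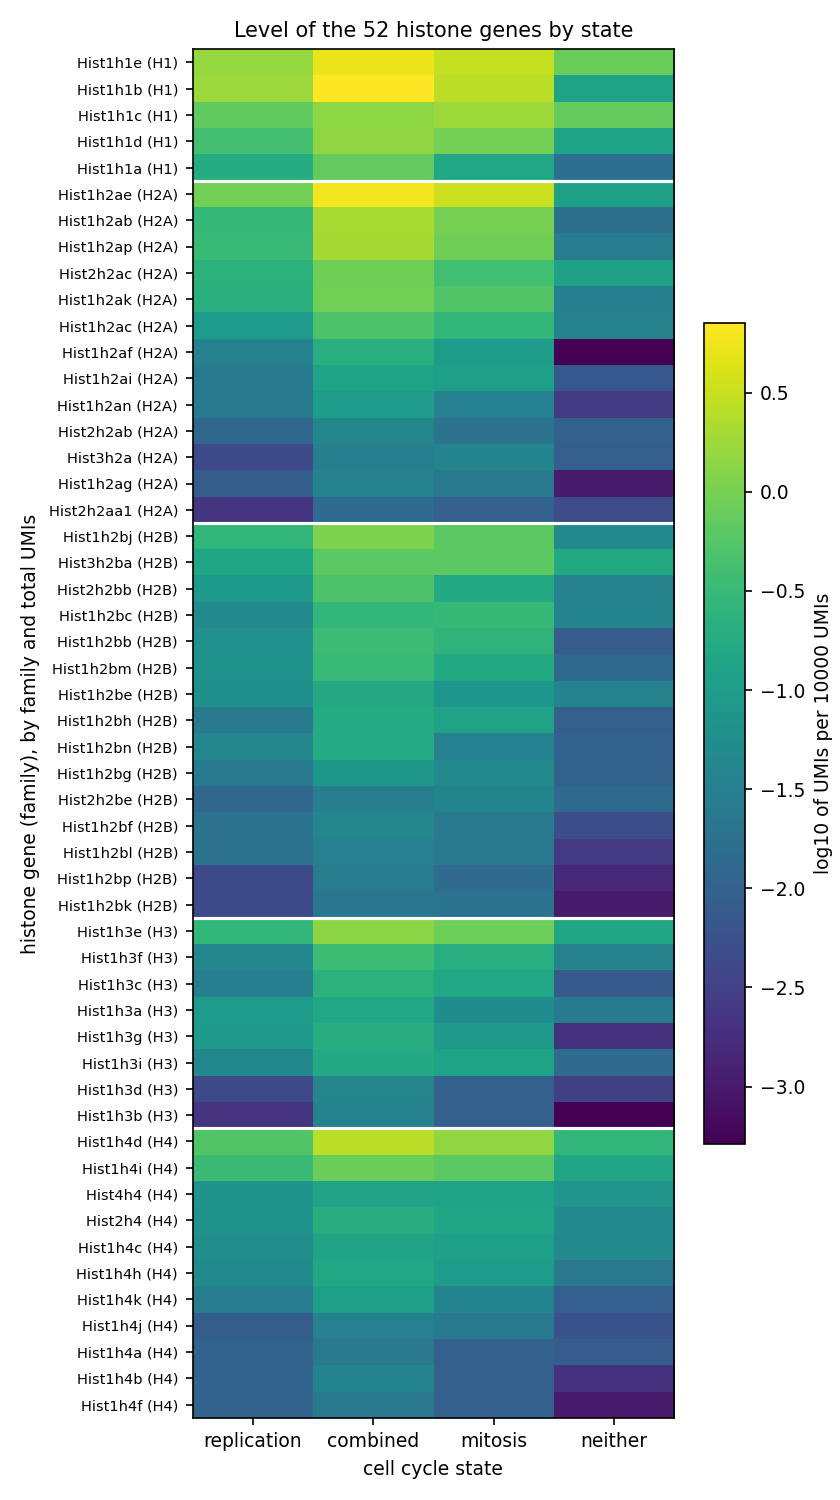
Level of each of the 52 members (colour, log10 of UMIs per 10000 UMIs) in the 4 cell cycle states, grouped by family and ordered by total UMIs within it. The combined column is the brightest for 48 genes, Hist1h1c keeps a similar colour across the row, and the H2A genes of the Hist1 cluster go from bright in the combined state to dark in the neither state.

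Linker and core histones were set against each other as the share of histone UMIs from H1 genes. H1 made up 48.3% (46.9% to 49.8%) of histone UMIs in the replication state, 40.3% (39.7% to 40.9%) in the combined state, 38.7% (37.3% to 40.2%) in the mitosis state and 52.8% (51.7% to 54.02%) in the neither state. The combined and mitosis intervals overlap, and both lie below those of the replication and neither states. Core histones stood 14.2 (13.7 to 14.8) times as high in the combined as in the neither state, against 8.58 (8.26 to 8.92) times for H1. H2A made up 32.5% (31.9% to 33.1%) in the combined state, against 11.04% (10.3% to 11.8%) in the neither state, the widest difference of the 5 families. H4 made up 10.9% (10.5% to 11.3%) in the combined state, against 18.1% (17.2% to 19.1%) in the neither state. Without Hist1h1e the H1 share was 30.9% in the combined state, against 38.1% in the neither state, so its order held at another level. Hist1h1c gave 879 of 10223 H1 UMIs in the combined state, against 1475 of 3660 in the neither state. The share without Hist1h1c was not computed. The difference between H1 and core was not common to all H1 genes. Hist1h1a (44.7) and Hist1h1b (54.2) had combined over neither ratios above that of the core histones. Those of Hist1h1d (11.3), Hist1h1e (6.43) and Hist1h1c (1.83) lay below it.

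The 2 lists were also followed in steps. Over the replication list, the histone level was 3.72 in cells with 0 UMIs, 10.7 at 3, 21.1 at 4 to 5 and 34.7 at 13 or more. Over the mitosis list it was 3.47 at 0, 15.9 at 3, 23.6 at 4 to 5 and 41.1 at 13 or more, higher at each step. The H1 share was 51.6% at 0 and 36.5% at 13 or more mitosis UMIs. With the lists crossed, cells with 11 or more replication UMIs had a histone level of 10.3 at 0 to 1 mitosis UMIs, 23.7 at 2 to 3, 31.5 at 4 to 6, 44.97 at 7 to 10 and 58.1 at 11 or more. Cells with 11 or more mitosis UMIs had 23.1 at 0 to 1 replication UMIs, against 3.41 in cells low on both lists. Cells with 7 to 10 replication and 0 to 1 mitosis UMIs had 4.72. The highest levels of the grid lay where the replication list was at 11 or more and the mitosis list at 7 or more.

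**Figure D4:**
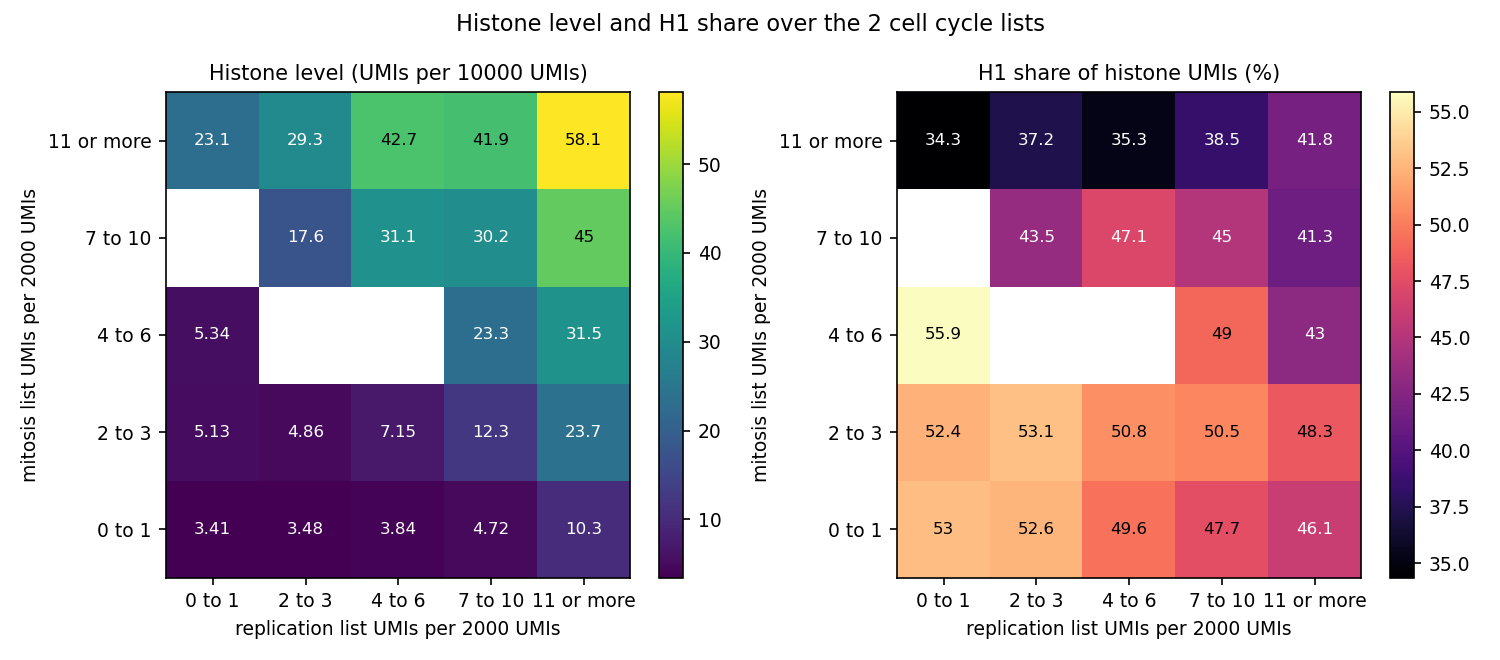
Histone level (left, UMIs per 10000 UMIs) and H1 share of histone UMIs (right, %) in cells binned by thinned UMIs of the replication list (x axis) and of the mitosis list (y axis); bins under 20 cells are blank. The level is 3.41 at the lower left and 58.1 at the upper right, and the H1 share is above 45% in every bin shown with under 4 mitosis UMIs and at most 41.8% in every bin with 11 or more.

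Histone levels differed little between CD4 and CD8 cells beside the differences between states. Over all cells the level was 11.9 (11.7 to 12.1) in CD4 cells, against 14.4 (14.2 to 14.6) in CD8 cells, a ratio of 0.826 (0.809 to 0.844). CD4 cells made up 43.8% of the CD4 and CD8 cells together, but 35.0% of those in the combined state, so this ratio mixes states. Within the combined state it was 42.01 (41.1 to 42.9) in CD4 cells, against 40.7 (40.04 to 41.4) in CD8 cells, a ratio of 1.03 (1.004 to 1.06). In the neither state the ratio was 1.001 (0.949 to 1.06). Both intervals lie close to 1. In the replication state the level was 8.25 (7.80 to 8.73) in CD4 cells, against 10.6 (10.2 to 11.1) in CD8 cells, a ratio of 0.776 (0.724 to 0.832). In the mitosis state it was 19.8 (18.8 to 20.9) in CD4 cells, against 24.1 (23.2 to 25.02) in CD8 cells, a ratio of 0.824 (0.772 to 0.879). Single cells weighed on these 2 ratios, which the intervals leave out. In the replication state 1 cell gave 146 of 1211 member UMIs in CD4 cells, against 175 of 2434 in CD8 cells. In the mitosis state 1 cell gave 168 of 1405 in CD4 cells, against 196 of 2600 in CD8 cells. With 1 cell per clonotype the combined-state value was -0.35 on the log2 scale, against 0.04 as reported, and with every cell weighted alike it was -0.10. The mitosis-state value was 0.05, against -0.28, when states were set at 1000 UMIs. The direction of the class difference within the combined and mitosis states therefore depended on the setting. In the replication state it lay between -0.83 and -0.20 on the log2 scale over the alternatives, so its size varied and its direction did not.

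Of 49 members with 20 or more UMIs over the 2 classes, none was 2-fold higher in CD4 cells, where 5.66% of all genes were, and 3 were 2-fold lower, where 3.74% of all genes were. These 3 were Hist1h2bl (9 UMIs in CD4 cells, against 28 in CD8 cells), Hist1h2bp (5 in CD4 cells, against 18 in CD8 cells) and Hist1h4a (7 in CD4 cells, against 23 in CD8 cells). Within the combined state none of 41 was 2-fold higher, where 2.9% of all genes were, and 1 was lower, where 3.57% were. That 1 was Hist2h4, at a ratio of 0.464 (95% interval 0.276 to 0.750). In the replication state none of 25 was 2-fold higher (3.58% of all genes) and 1, Hist2h2ac, was lower (3.88%). In the mitosis state none of 26 was higher (3.63%) and 4 were lower (4.81%): Hist2h4, Hist1h3i, Hist1h2bh and Hist1h3c, each from 3 to 7 UMIs in CD4 cells, against 17 to 22 in CD8 cells. In the neither state none of 26 was higher (5.75%) or lower (3.82%). Genes named from these counts were named after their values were seen. Among the linker genes, Hist1h1a stood at 0.215 in CD4 cells, against 0.196 in CD8 cells, Hist1h1b at 1.73 in CD4 cells, against 2.18 in CD8 cells and Hist1h1c at 0.948 in CD4 cells, against 0.928 in CD8 cells. Hist1h1d stood at 0.438 in CD4 cells, against 0.560 in CD8 cells, and Hist1h1e at 1.85 in CD4 cells, against 2.25 in CD8 cells. Hist1h1a was the H1 gene with an interval above 1 within the combined state, at a CD4 over CD8 ratio of 1.44 (95% interval 1.18 to 1.77).

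For H2A, Hist1h2ae stood at 1.37 in CD4 cells, against 1.92 in CD8 cells. Hist1h2ab stood at 0.501 in CD4 cells, against 0.621 in CD8 cells, and Hist1h2ap at 0.453 in CD4 cells, against 0.603 in CD8 cells. Hist2h2ac stood at 0.298 in CD4 cells, against 0.328 in CD8 cells, Hist1h2ak at 0.236 in CD4 cells, against 0.308 in CD8 cells, and Hist1h2ac at 0.140 in CD4 cells, against 0.179 in CD8 cells. Every H2A gene named here was lower in CD4 cells by value, and so were Hist1h2af (0.0405 in CD4 cells, against 0.0681 in CD8 cells) and Hist1h2ai (0.0405 in CD4 cells, against 0.0474 in CD8 cells). For H2B, Hist1h2bj stood at 0.306 in CD4 cells, against 0.392 in CD8 cells, Hist3h2ba at 0.315 in CD4 cells, against 0.272 in CD8 cells, and Hist2h2bb at 0.151 in CD4 cells, against 0.140 in CD8 cells. Hist1h2bc stood at 0.106 in CD4 cells, against 0.0994 in CD8 cells, and Hist1h2bb at 0.0864 in CD4 cells, against 0.113 in CD8 cells. Hist3h2ba, Hist2h2bb and Hist1h2bc were the H2B genes of this size with the higher value in CD4 cells. Hist1h2bm stood at 0.0792 in CD4 cells, against 0.101 in CD8 cells, and Hist1h2be at 0.0558 in CD4 cells, against 0.0814 in CD8 cells. Hist1h2bh stood at 0.0432 in CD4 cells, against 0.0621 in CD8 cells, and Hist1h2bn at 0.0378 in CD4 cells, against 0.0607 in CD8 cells. For H3, Hist1h3e stood at 0.453 in CD4 cells, against 0.498 in CD8 cells, Hist1h3f at 0.107 in CD4 cells, against 0.125 in CD8 cells, and Hist1h3c at 0.0657 in CD4 cells, against 0.0734 in CD8 cells. All 3 were lower in CD4 cells by value. Hist1h3a stood at 0.0630 in CD4 cells, against 0.0607 in CD8 cells, Hist1h3g at 0.0549 in CD4 cells, against 0.0674 in CD8 cells, and Hist1h3i at 0.0450 in CD4 cells, against 0.0707 in CD8 cells. For H4, Hist1h4d stood at 0.831 in CD4 cells, against 0.966 in CD8 cells, and Hist1h4i at 0.339 in CD4 cells, against 0.365 in CD8 cells. Hist4h4 stood at 0.0873 in CD4 cells, against 0.0907 in CD8 cells, and Hist2h4 at 0.0711 in CD4 cells, against 0.103 in CD8 cells. All 4 had the lower value in CD4 cells. Hist1h4c stood at 0.0666 in CD4 cells, against 0.0767 in CD8 cells, Hist1h4h at 0.0486 in CD4 cells, against 0.0641 in CD8 cells, and Hist1h4k at 0.0207 in CD4 cells, against 0.0394 in CD8 cells, again lower in CD4 cells by value.

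The H1 share was nearly alike between the classes over all cells, at 43.6% (42.7% to 44.4%) in CD4 cells, against 42.5% (41.9% to 43.2%) in CD8 cells. In the combined state it was 39.8% (38.8% to 40.9%) in CD4 cells, against 40.5% (39.6% to 41.3%) in CD8 cells. In the neither state it was 52.9% (50.9% to 54.8%) in CD4 cells, against 53.3% (51.5% to 55.2%) in CD8 cells, and these pairs of intervals overlap. In the replication state it was 50.8% (47.9% to 53.6%) in CD4 cells, against 46.9% (44.9% to 48.9%) in CD8 cells, intervals that also overlap. In the mitosis state it was 42.8% (40.2% to 45.4%) in CD4 cells, against 37.3% (35.4% to 39.2%) in CD8 cells, and these intervals do not overlap. These shares rest on 63 CD4 and 120 CD8 cells. In CD4 cells 1 cell gave 168 of 1405 histone UMIs, and in CD8 cells 1 gave 196 of 2600. The intervals take no account of this. Core histones were higher in the combined state within each class: combined over neither was 15.3 (14.4 to 16.3) in CD4 cells and 14.9 (14.03 to 15.8) in CD8 cells, with H2A at 40.4 (35.3 to 46.3) in CD4 cells and 33.7 (30.1 to 37.8) in CD8 cells. In CD4 cells 33 of 36 members were 2-fold higher in the combined state, where 9.35% of all genes were, and in CD8 cells 38 of 40, where 9.91% were; none was 2-fold lower in either class, where 10.6% of all genes were in CD4 cells and 8.72% in CD8 cells.

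Histone RNA was spread unevenly over cells. On cells thinned to 2000 UMIs, a member UMI was found in 54.0% of cells in the replication state, 94.2% in the combined state, 80.1% in the mitosis state and 45.7% in the neither state. Without thinning these shares were 82.5%, 99.3%, 94.9% and 70.6%. The median thinned cell had 1, 8, 2 and 0 member UMIs, in the same order of states. In the combined state the quartiles were 3 and 13 UMIs, and 39.9% of cells had 10 or more, against 0.0249% in the neither state. Without thinning, the 10% of cells with most member UMIs gave 61.6% of them in the replication state and 25.9% in the combined state. This share was 44.0% in the mitosis state and 35.8% in the neither state. It also varies with cell depth and with how sparse the counts are. For Hist1h1e, a UMI was found in 59.6% of thinned cells in the combined state, against 14.1% in the neither state, and for Hist1h2ab in 32.1% in the combined state, against 0.348% in the neither state. The 117 barcodes with 3 or more UMIs of macrophage markers, at a median of 6917 UMIs, had a member UMI in 42.7% after thinning, against 53.2% of the other barcodes at a median of 4772. Their member level was 9.75, against 12.7 in the other barcodes, and 77.8% of them were in the neither state, against 75.4% of the others, so they are no blank and the share that free RNA gives was not measured. Among the 12 members with 1000 or more UMIs, the correlation of thinned counts over cells of the combined state lay between -0.02 and 0.38 for the 66 pairs, with a median of 0.12. In these sparse counts it is given as a description. Hist1h2ae with Hist1h2ab had the highest value.

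The annotated length beyond the stem-loop went with the ratio between states. Among the 38 members with a match, 17 ended 3 to 57 bases after it, and their median log2 ratio, combined over neither, was 4.53 (1.62 to 6.95). The other 21 extended 74 to 4884 bases beyond it, and their median was 2.68 (0.87 to 5.61). The 14 with no match had a median of 3.94, where the median over all 11355 genes was -0.10. The rank correlation of this length with the log2 ratio was -0.55 over the 38 genes, which lie mostly in 1 gene cluster, share reads within families and are not independent. The limit of 60 bases was chosen after the annotation was seen, and no test was made. The 21 long annotated transcripts held 60.5% of member UMIs, those ending within 60 bases 16.7%, and those with no match 22.8%. Hist1h2ab, whose transcript ended 11 bases after the stem-loop, had the ratio of 124 given above, and Hist1h1c and Hist4h4, with 840 and 2445 further bases, had 1.83 and 1.88. Hist1h1d went against this with 4884 bases and a ratio of 11.3. Which 3′ ends the captured molecules had was not measured by these 5′ libraries.

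**Figure D5:**
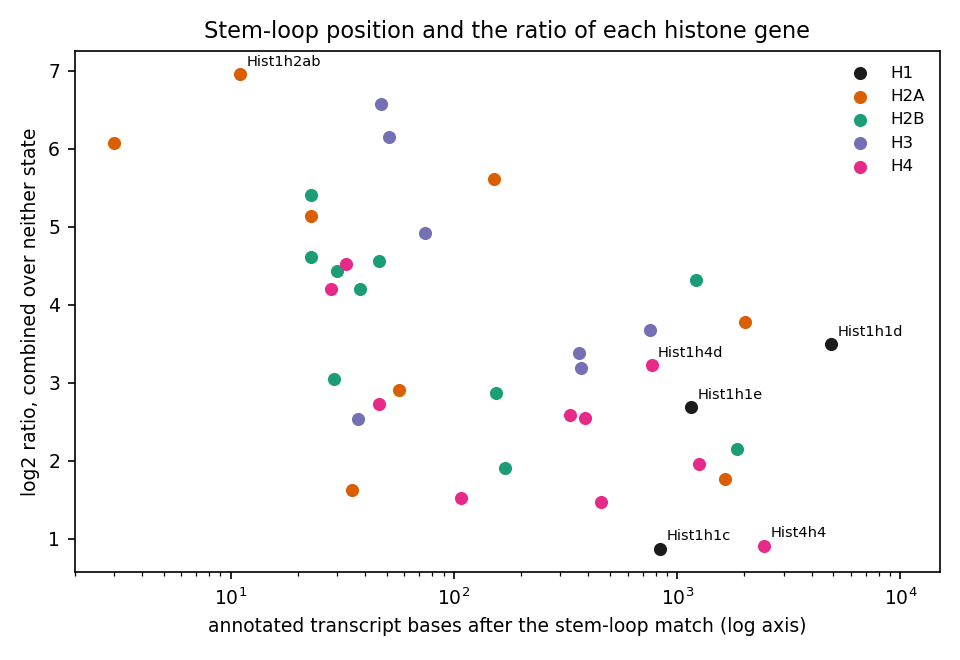
Annotated transcript bases after the stem-loop match (x axis, log) and the log2 ratio of levels, combined over neither state (y axis), for the 38 members with a match, coloured by family. Genes that end within 60 bases of the match have a median of 4.53 and the others 2.68, with Hist1h1c and Hist4h4 at the lower right.

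By position, 43 members lay in the Hist1 cluster on chr13:21715763-23764406 and held 92.4% of member UMIs, with a median log2 ratio, combined over neither, of 4.13. The 6 Hist2 members on chr3:96219865-96270132 had a median of 2.02, the 2 Hist3 members on chr11:58948920-58956830 had 1.84, and Hist4h4 on chr6:136801553-136804415 had 0.91. Near-identical copies limit single core genes. Of the 52 members, 21 shared over 50% of their 50-base stretches with transcripts of another gene, and they held 20.7% of member UMIs. Among them were Hist1h2ap (93.1%), Hist1h3e (73.4%), Hist1h2bj (59.4%) and Hist1h2ab (58.0%). The levels of these genes, and their ratios given above, are uncertain, since the counting could have split or dropped shared reads. Hist1h1a and Hist1h1b shared none, Hist1h1d shared 2.25%, Hist1h1c 8.54% and Hist1h1e 32.0%. Over the first 300 bases, nearer to where 5′ reads begin, Hist1h1c shared 41.3% and Hist1h1e 32.3%, so these levels are uncertain too. More core members passed 50% over these bases than over whole transcripts. Those added there included Hist1h2bc (86.3%), Hist1h2ac (69.0%), Hist1h4i (65.3%) and Hist2h2ac (56.0%), while Hist1h2ae (41.3%) and Hist1h4d (37.0%) stayed below it. In exon bases, 6 members overlapped another gene on the same strand and 15 one on the other strand, and the sources used here do not give the strand setting of the counting.

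Histone genes that are expressed outside replication differed among themselves. Of the 11 replication-independent histone genes listed, 9 had enough UMIs and 4 were 2-fold higher and none lower, combined over neither, where 9.13% of all genes were higher and 11.1% lower. Their median log2 ratio was 0.37, against -0.10 over all genes. H3f3b, which encodes the replacement histone H3.3, had 30.7 in the combined state, against 32.2 in the neither state, a ratio of 0.953. H3f3a, its second gene, had 11.3 in the combined state, against 8.95 in the neither state, a ratio of 1.26. H2afj had 3.67 in the combined state, against 3.65 in the neither state, a ratio of 1.004. These 3 differed little between the states. H2afz, the variant H2A.Z, had 27.5 in the combined state, against 6.66 in the neither state, a ratio of 4.14. H2afv, a second H2A.Z gene, had 6.46 in the combined state, against 1.84 in the neither state, a ratio of 3.50. H2afy, which encodes macroH2A, had 3.28 in the combined state, against 2.54 in the neither state, a ratio of 1.29. H2afz and H2afv were thus higher with the members. Of 19 genes for histone transcription and 3′ end processing, 7 were 2-fold higher and none was lower in that comparison, with a median of 0.79. Slbp, which binds the stem-loop, had 2.79 in the combined state, against 0.959 in the neither state, a ratio of 2.91. Eri1, a 3′ exonuclease that trims histone mRNA, had 1.13 in the combined state, against 0.340 in the neither state, a ratio of 3.34. Casp8ap2, of the histone locus body, had 1.26 in the combined state, against 0.551 in the neither state, a ratio of 2.28. Srrt, Cpsf2 and Lsm1, the others of the 6 most counted, had ratios of 2.03, 1.83 and 1.47. Of 18 histone chaperone genes, 13 were 2-fold higher and none was lower, again beside 9.13% and 11.1% of all genes, with a median of 1.46. Nap1l1, which carries H2A and H2B, had 5.44 in the combined state, against 1.91 in the neither state, a ratio of 2.85. Ssrp1, a subunit of FACT, had 3.13 in the combined state, against 1.18 in the neither state, a ratio of 2.66. Rbbp7, a partner of several chaperones, had 2.63 in the combined state, against 0.915 in the neither state, a ratio of 2.88. Rbbp4, Nap1l4 and Atrx had ratios of 2.07, 1.40 and 1.22. Replication over neither, 11 of the 18 chaperones and 4 of the 19 processing genes were 2-fold higher, where 6.87% of all genes were. Mitosis over neither, 4 of the 18 chaperones and 2 of the 19 processing genes were higher, where 6.16% of all genes were, a share near that of the processing genes. None of these genes is in the lists that set the states.

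Among 8426 other genes with 200 or more UMIs, likeness to the summed members was measured as Pearson's r of log2 levels over the 8 groups made by 4 states and 2 classes. The 10 highest were Rbm8a, Pcbd2, Hmgb1, Hjurp, Plk4, Tmpo, Kif15, Ssna1, Ncaph2 and Tbc1d31, with r of 0.982 to 0.995. The groups share 1 library and the state lists, so these values are a description. Rbm8a, highest by this measure, spanned only 0.652 on the log2 scale between groups, against 3.59 for the members. Hmgb1, a chromatin protein that bends DNA, stood at 8.71 in the replication state, 15.9 in the combined state, 11.9 in the mitosis state and 4.95 in the neither state. Hjurp, the chaperone of the centromeric histone Cenpa, stood at 0.470 in the replication state, 1.21 in the combined state, 0.964 in the mitosis state and 0.203 in the neither state. Kif15, a mitotic motor protein, stood at 0.220 in the replication state, 1.17 in the combined state, 0.754 in the mitosis state and 0.0681 in the neither state, with the widest span of the 10, 4.62.

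Markers of other cells moved with the states. Macrophage markers, all 10 of them above 0, had a summed level of 0.683 in the replication state, 0.357 in the combined state, 0.682 in the mitosis state and 1.90 in the neither state. Their part in the histone ratios was measured by leaving out the 117 barcodes, which left every histone ratio between states and classes within its counting interval. Of the plasma cell markers Mzb1 was at 0, and the lists of neutrophils, fibroblasts and epithelium summed to at most 0.289 in any state. Genes of dissociation stress summed to 27.3 in the replication state, 23.6 in the combined state, 25.6 in the mitosis state and 41.3 in the neither state, and to 43.2 in CD4 cells, against 25.3 in CD8 cells. Their part in the results was not tested. Of 5333 kept barcodes 5133 had a T cell receptor contig and 232 had 2 or more productive beta chains. Without these 232, the CD4 over CD8 value in the mitosis state was -0.38 on the log2 scale, against -0.28 with them.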

How the data were processed

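The labels describe 1 pooled RNA library and 1 T cell receptor library. The deposited RNA table holds UMI counts per gene and barcode, not normalized; Cell Ranger and mm10 are named in the submitters' processing notes, and the sources used here give neither versions nor the strand setting. Barcodes with 500 or more genes and at most 10% mitochondrial UMIs were kept (5333 of 5348; 2549 to 39138 UMIs per cell, median 4800). The deposited receptor contigs gave beta chains and clonotypes (counts of contigs as the authors listed them).

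Counts were summed over cells with Python 3.11.15, numpy 2.4.6, scipy 1.17.1 and pandas 2.3.3, and drawn with matplotlib 3.10.9. Levels carry exact Poisson intervals, ratios exact conditional binomial intervals and shares exact Clopper-Pearson intervals, all at 95% and covering counting error only. The ratio step was tested on simulated independent Poisson counts. These leave out the uneven spread of UMIs over cells, so that test cannot show how the intervals hold for these data. States used each cell thinned to 2000 UMIs (seed 1), a replication list of 45 genes and 45 of 48 genes of a mitosis list (Casc5, Sgol1 and Sgol2a were not found). No doublet caller was run and possible doublets were kept. The members and lists were chosen with earlier results of these data known. Named were all members, with full values from 100 UMIs up, up to 6 genes of each other list by UMI total, and the 10 genes most like the summed members. Genes named beyond this rule are marked as such. Alternatives changed the state limits, thinning, filters, classes, members and weighting of cells.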

Additional observations from a re-analysis of the deposited data

Results flagged for a closer look

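For 3 of the 52 members the ratio of CD4 over CD8 cells lay on opposite sides of 1 in different states, with intervals that exclude 1. The differences between states were not tested. These 3 were named after their values were seen, and no share of all genes under the same rule stands beside the count. It is therefore no result about histone genes as a set. Hist2h2ac had 1.07 UMIs per 10000 in CD4 cells, against 0.808 in CD8 cells, in the combined state, a ratio of 1.32, and 0.136 in CD4 cells, against 0.297 in CD8 cells, in the replication state, a ratio of 0.459. Hist1h4d had 0.333 in CD4 cells, against 0.239 in CD8 cells, in the neither state, a ratio of 1.39, and 0.423 in CD4 cells, against 0.612 in CD8 cells, in the replication state, a ratio of 0.691. Hist1h1c had 0.813 in CD4 cells, against 0.694 in CD8 cells, in the neither state, a ratio of 1.17, and 1.36 in CD4 cells, against 1.90 in CD8 cells, in the mitosis state, a ratio of 0.714. The pool has no replicate in which to look for them again.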

How the results depend on the processing

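Of 210 alternative values, 150 lay within the counting interval of the reported value (for counts of members, within 1.5 times it), 57 lay outside and 3 changed direction; the cause was not tested. Direction was counted only where the reported interval excludes 0 on the log2 scale. The CD4 over CD8 value in the neither state, whose interval holds 0, took either sign. State comparisons are log2 ratios of the summed members in the order replication over neither (1.42 as reported), mitosis over neither (2.64), combined over neither (3.49) and replication over mitosis (-1.22); no alternative changed their direction. CD4 over CD8 was -0.28 over all cells and -0.37, 0.04, -0.28 and 0.00 in the replication, combined, mitosis and neither states. A limit of 3 UMIs gave 0.90, 2.25, 3.403 and -1.36, with CD4 over CD8 at -0.58 in the replication state. A limit of 6 gave 2.10, 3.08, 3.56 and -0.98, with -0.20 there. Thinning to 1000 UMIs with a limit of 2 gave 1.18 and 2.48 over neither and -1.30, with CD4 over CD8 at -0.78 in the replication state and 0.055, reversed, in the mitosis state. Without thinning (20 per 10000), mitosis over neither was 2.43, combined over neither 3.58 and replication over mitosis -1.01, with CD4 over CD8 at -0.79 in the replication and 0.087 in the combined state. Another thinning seed gave 1.51, 2.45 and -0.94 for replication over neither, mitosis over neither and replication over mitosis, with CD4 over CD8 at 0.088 in the combined and -0.49 in the mitosis state. Weighting cells alike gave 1.13, 2.53, 3.63 and -1.40, with CD4 over CD8 at -0.42 over all cells, -0.10, reversed, in the combined and -0.38 in the mitosis state, and an H1 share of 46.2% in CD4 and 44.1% in CD8 cells. With 1 cell for each of 826 clonotypes the comparisons gave 1.73, 2.73, 3.41 and -1.003, CD4 over CD8 gave -0.64 over all cells and -0.83, -0.35 (reversed), -0.54 and -0.19 in the replication, combined, mitosis and neither states, and the H1 share was 41.6% in the combined state, 54.7% in the neither state, 41.0% in CD4 and 44.8% in CD8 cells. Members with 100 or more UMIs gave H1 shares of 41.0% (combined), 54.1% (neither) and 43.3% (CD8). Without Hist1h1e the first 3 comparisons were 1.54, 2.81 and 3.67, and the H1 share was 30.9% (combined), 38.1% (neither), 33.2% (CD4) and 31.9% (CD8). Asking for 2 UMIs of a lineage gene gave CD4 over CD8 at -0.15, and leaving out barcodes with 2 or more beta chains gave -0.38 in the mitosis state. With a minimum of 50 UMIs over both states, 14 of the fewer members that qualified were 2-fold higher in replication over neither.

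No paired analysis was possible because the pool is 1 sample. Counting error is the only error measured, variation between animals is not, and members with few UMIs in the neither state have wide intervals.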
